A study of Homo sapiens with 7 samples.

Results

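The genes described here are 10 genes of the epithelial-mesenchymal transition (EMT): the transcription factors SNAI1, SNAI2, TWIST1, TWIST2, ZEB1 and ZEB2, the cadherins CDH1, CDH2 and CDH3, and VIM. They were chosen by name, as genes whose symbol stood alone in the annotation of a probe, and all 10 were found among the 18417 genes measured, on 11 of 33297 probes. ZEB2 had 2 such probes, of which the one with the larger interquartile range over the arrays was taken, and each other gene had 1. By the sample labels, RNA came from SUM159 cells, a human triple-negative breast cancer line of mesenchymal character, grown in culture with serum, insulin and hydrocortisone. The study's array methods speak of engineered cells, but its text names SUM159 tumours as the source of its expression data on this line, and which of these sources the arrays hold was not tested. The cells expressed SHP2 sh1 (2 arrays), SHP2 sh2 (3 arrays) or Ctrl shRNA (2 arrays), hairpins that doxycycline switches on. All 3 groups received doxycycline, for 15 days according to the labels. The model is 1 cell line, and separate cultures for the arrays within a group are not mentioned in the labels, so that p-values measure the spread between arrays, which may be technical. Expression was read as log2 values after robust multi-array averaging (RMA) on Human Gene 1.0 ST arrays, which read each transcript with probes along its length, and 1 unit on this scale is a doubling of brightness.

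During EMT, epithelial cells loosen their junctions and take on the shape and motility of mesenchymal cells. E-cadherin, the product of CDH1, joins neighbouring epithelial cells through its contact with catenins, and its loss together with a gain of N-cadherin (CDH2) is called the cadherin switch. The zinc finger proteins of the SNAI and ZEB families bind E-box sequences in the promoter of CDH1 and repress it, whereas the TWIST proteins are basic helix-loop-helix factors that act as dimers with E proteins. ZEB1 and ZEB2 also stand in a loop of mutual repression with the miR-200 family of microRNAs. In breast cancer the mesenchymal state is known from triple-negative lines of the type to which SUM159 belongs. SHP2, encoded by PTPN11, is a tyrosine phosphatase that carries signals from growth factor receptors to the RAS and ERK pathway.

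PTPN11 served as a check of the hairpins. It read 7.90 and 6.93 under SHP2 sh1 and 7.96, 7.20 and 7.89 under SHP2 sh2, against 9.53 and 9.18 under Ctrl shRNA, so that no array went against its label. The replicate 2 arrays of SHP2 sh1 and of SHP2 sh2 stood apart from the rest. Their correlations with the other 5 arrays ran from 0.886 to 0.965, against 0.981 to 0.992 among those 5, and on them the brightest 25% of genes had a median difference from the control mean of -0.44 and -0.83, the second dimmest 25% of 0.31 and 0.57. The 10 genes are therefore given array by array, and the 2 arrays are named where they decide a value. Of the genes that define a mesenchymal line, VIM lay between 11.62 and 12.18 on the 7 arrays and CD44 between 10.69 and 12.15. Both were among the brightest probes. Of breast epithelium, EPCAM (2.89 to 4.10), CD24 (3.52 to 5.48) and PGR (4.44 to 4.89) lay among the dimmest. ESR1 lay at 5.60 to 6.73 and ERBB2 at 7.44 to 8.29. Other epithelial genes were bright, such as KRT8 at 9.73 to 11.25. The brightest 25% of genes held 4 of the 25 epithelial genes measured and 6 of the 6 basal breast epithelial markers measured. The dim genes named here therefore do not stand for all epithelial genes. Brightness also depends on the probe, so these levels are not set against each other. Precision was limited by the 2 or 3 arrays in a group.

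None of the 10 genes passed the threshold of an adjusted p of 0.05 in limma, with SHP2 sh1, with SHP2 sh2, for both hairpins averaged or between the hairpins. The same held for all genes tested, of which 0% were called in each of the 4 comparisons. The largest difference among the 10 was that of CDH1, whose log2 fold change for both hairpins averaged was 1.05 (standard error 0.65, 95% interval -0.50 to 2.60, unadjusted p = 0.153 and adjusted p = 0.758 from limma). The smallest p was that of SNAI2 with SHP2 sh2, with a log2 fold change of -0.81 (standard error 0.24, interval -1.39 to -0.22, unadjusted p = 0.0141 and adjusted p = 0.667 from limma). At an unadjusted p under 0.05, 0 of the 10 genes were counted with SHP2 sh1 (1.09% of all genes), 1 with SHP2 sh2 (2.35%), 0 for both hairpins averaged (1.94%) and 1 between the hairpins (0.63%), the gene being SNAI2 each time. Averaged over both hairpins, 5 of the 10 genes had a log2 fold change under 0 and 5 had one over 0 (median 0.021), beside 42.0% of all genes under 0 (median 0.075). The adjusted p ran from 0.667 to 0.983 with SHP2 sh2 and from 0.758 to 0.916 for both hairpins averaged, and was 0.995 for each gene with SHP2 sh1 and 1 for each between the hairpins. The comparisons of the hairpins with Ctrl shRNA share the same 2 control arrays.

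**Figure D1:**
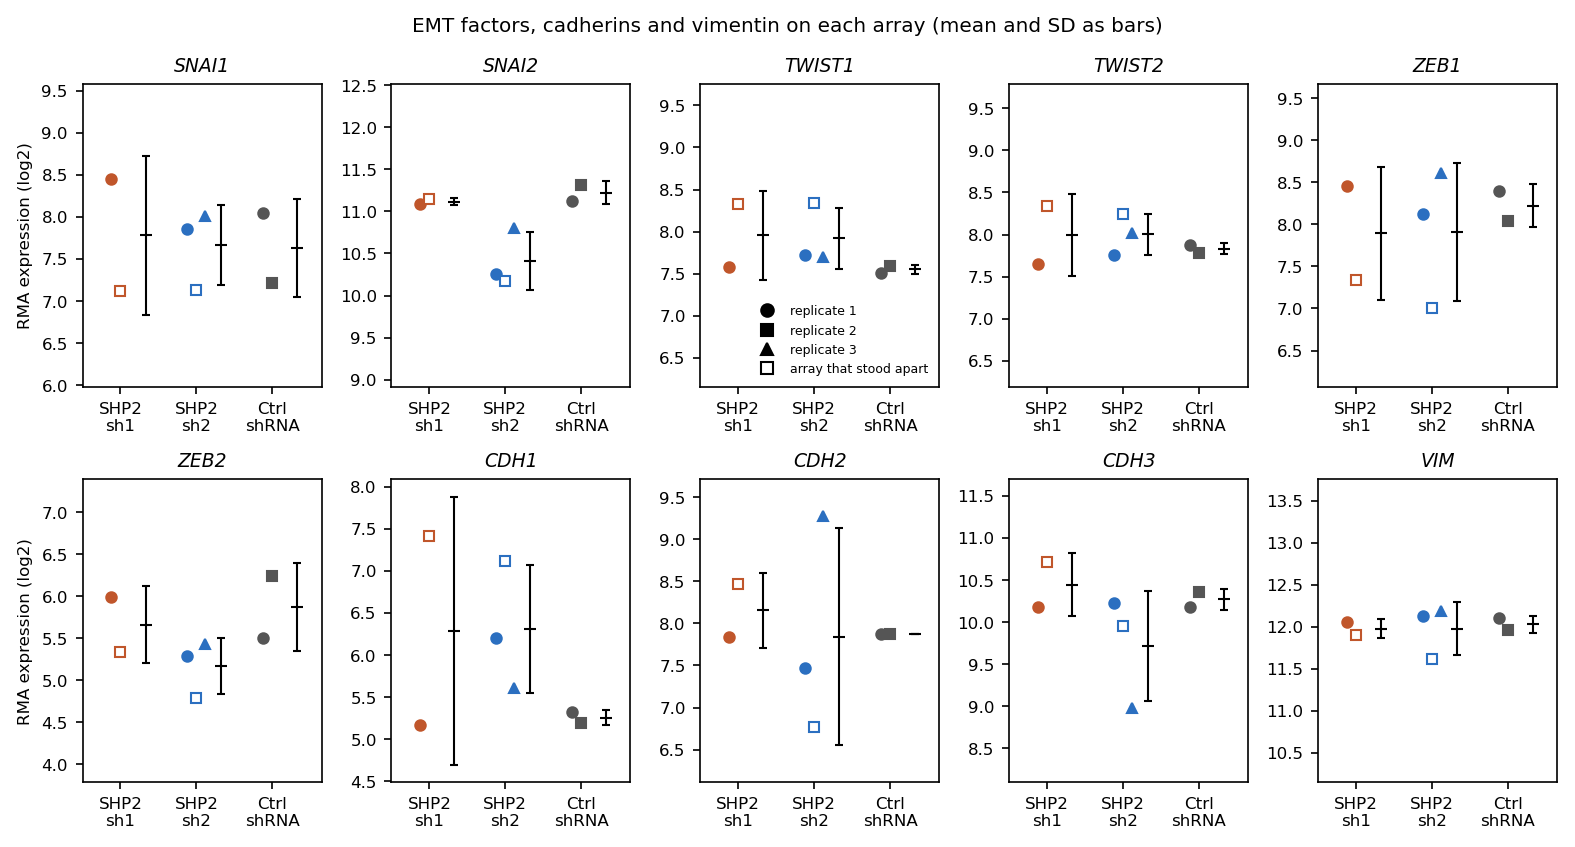
RMA expression (log2) of the 10 genes on each of the 7 arrays by group. Symbols give the replicate number, open squares are the 2 arrays that stood apart, bars beside the points are the mean and SD (n = 2, 3 and 2), and each panel spans the same number of log2 units. CDH1 lies at 7.42 and 7.12 on the open squares, against 5.32 and 5.19 on the controls, and SNAI2 is lower on all 3 SHP2 sh2 arrays than on every other array.

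CDH1 encodes E-cadherin, the adhesion molecule whose loss is a hallmark of the transition. It read 5.16 and 7.42 under SHP2 sh1 and 6.20, 7.12 and 5.61 under SHP2 sh2, against 5.32 and 5.19 under Ctrl shRNA. The 2 highest values were those of the arrays that stood apart, the 3 SHP2 sh2 arrays all lay above both controls (as did 24.2% of all genes), and the other SHP2 sh1 array lay below both. The averages were 6.29 ± 1.59 (SD, n = 2) under SHP2 sh1, 6.31 ± 0.76 (SD, n = 3) under SHP2 sh2 and 5.26 ± 0.09 (SD, n = 2) under Ctrl shRNA. The hairpins had nearly the same mean but not the same arrays behind it. Against the control mean the single arrays differed by -0.093 and 2.16 with SHP2 sh1 and by 0.95, 1.87 and 0.35 with SHP2 sh2. Counted from the top of all 18417 genes, these differences ranked 11769 and 20 with SHP2 sh1 and 56, 24 and 1218 with SHP2 sh2, so that CDH1 was among the 100 highest genes on 3 of the 5 arrays. The fitted log2 fold change was 1.03 with SHP2 sh1 (standard error 0.77, interval -0.81 to 2.88) and 1.06 with SHP2 sh2 (standard error 0.70, interval -0.62 to 2.74). Without SHP2 sh1 replicate 2 the SHP2 sh1 value was -0.093, and without replicate 1 it was 2.16. With SHP2 sh2 it stayed above 0 when any single array was left out, between 0.65 and 1.41. The probe of CDH1 belongs to the second dimmest 25% of genes, whose medians were 0.31 and 0.57 above the control mean on the arrays that stood apart, and the part of that shift in the 2.16 and 1.87 of CDH1 was not tested.

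CDH2, which encodes N-cadherin, differed widely between the arrays of SHP2 sh2. It read 7.84 and 8.47 under SHP2 sh1 and 7.48, 6.77 and 9.28 under SHP2 sh2, against 7.87 and 7.87 under Ctrl shRNA. The 2 control values are identical, as they are for 5.49% of genes in the deposited table, so they give no spread of their own. SHP2 sh2 replicate 3 was 1.41 above the control mean, a difference that ranked 50 from the top of all genes on that array, whereas SHP2 sh2 replicate 2 was 1.09 below it. The mean with SHP2 sh2, 7.84 ± 1.29 (SD, n = 3), was therefore close to that of the controls, 7.87, although its arrays lay 0.39 below, 1.09 below and 1.41 above them. The log2 fold change with SHP2 sh2 was -0.026 (standard error 0.69), -0.74 without SHP2 sh2 replicate 3 and 0.51 without SHP2 sh2 replicate 2. With SHP2 sh1 it was 0.29 (standard error 0.75).

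CDH3 encodes P-cadherin, which is found in basal and myoepithelial cells of the breast and lies beside CDH1 on chromosome 16. It read 10.18 and 10.71 under SHP2 sh1 and 10.22, 9.95 and 8.98 under SHP2 sh2, against 10.18 and 10.35 under Ctrl shRNA. Here too SHP2 sh2 replicate 3 was the array farthest from the controls, but below them. Its difference of -1.29 ranked 97 from the bottom of all genes on that array, which was the same array that had the highest CDH2. The basal keratins, named after their values were seen, were also lowest on that array, where KRT5 read 9.03, against 11.87 and 12.32 under Ctrl shRNA. KRT14 read 8.74 there, against 10.47 and 10.81 under Ctrl shRNA, and the 6 basal markers had a median difference of -0.88 on it. Of the 6, 1 lay above the control mean on that array, LAMB3, at 9.23 against 8.79 and 8.47 under Ctrl shRNA. The part of the basal markers in the CDH3 value was not tested. The log2 fold change of CDH3 was 0.18 with SHP2 sh1 (standard error 0.43) and -0.55 with SHP2 sh2 (standard error 0.39). Without SHP2 sh2 replicate 3 the second value was -0.18. Between the hairpins, SHP2 sh2 minus SHP2 sh1 was -0.73 (standard error 0.39, interval -1.67 to 0.21). Of the 3 classical cadherins of the set, CDH1 was farthest from the control mean on both arrays that stood apart and was also high on SHP2 sh2 replicate 1, at 0.95 and rank 56 from the top. CDH2 and CDH3 were farthest from it on SHP2 sh2 replicate 3, which did not stand apart over all genes.

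VIM encodes vimentin, the intermediate filament protein of mesenchymal cells. It read 12.06 and 11.90 under SHP2 sh1 and 12.13, 11.62 and 12.18 under SHP2 sh2, against 12.10 and 11.96 under Ctrl shRNA. The groups overlapped, and the lowest value was that of SHP2 sh2 replicate 2. The log2 fold change was -0.051 (standard error 0.26) with SHP2 sh1 and -0.052 (standard error 0.23) with SHP2 sh2, and the interval for both hairpins averaged ran from -0.57 to 0.47, the narrowest of the 10 genes. The averaged value lay above 0 with array weights, with a common SD, with cyclic loess and without the 2 arrays that stood apart, at up to 0.19.

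**Figure D2:**
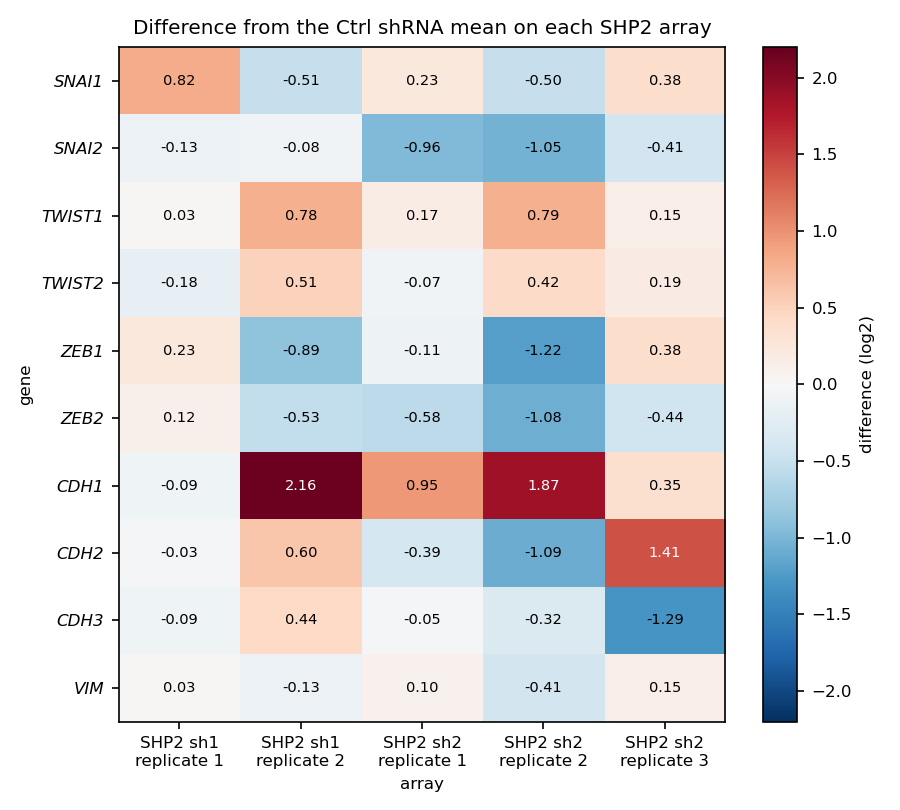
Difference of each gene from the Ctrl shRNA mean (log2) on each SHP2 array, with genes in rows and arrays in columns. Red is above and blue below the control mean. CDH1 reaches 2.16 and 1.87 on the replicate 2 arrays, and CDH2 and CDH3 reach 1.41 and -1.29 on SHP2 sh2 replicate 3.

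SNAI2 encodes SLUG, a repressor of E-cadherin that basal-like breast cancers commonly express. It read 11.09 and 11.14 under SHP2 sh1 and 10.26, 10.18 and 10.81 under SHP2 sh2, against 11.12 and 11.32 under Ctrl shRNA. All 3 SHP2 sh2 arrays were below all 4 other arrays, whereas of the SHP2 sh1 arrays one lay just below the lower control and one between the controls. The averages were 11.12 ± 0.04 (SD, n = 2) under SHP2 sh1 and 10.41 ± 0.34 (SD, n = 3) under SHP2 sh2, against 11.22 ± 0.14 (SD, n = 2) under Ctrl shRNA, and those of SHP2 sh1 and Ctrl shRNA did not differ beyond their spread. With SHP2 sh1 the log2 fold change was -0.11 (standard error 0.27, unadjusted p = 0.707 from limma). The difference between the hairpins, SHP2 sh2 minus SHP2 sh1, was -0.70 (standard error 0.24, interval -1.29 to -0.12, unadjusted p = 0.0253 and adjusted p = 1 from limma). Arrays that do not overlap in the lower direction occurred in 16.1% of all genes between SHP2 sh2 and Ctrl shRNA and in 3.08% between SHP2 sh2 and SHP2 sh1. Against the control mean the SHP2 sh2 arrays differed by -0.96, -1.05 and -0.41, and the median of the brightest 25% of genes, to which the SNAI2 probe belongs, was -0.13, -0.83 and -0.00067 on the same arrays. SNAI2 was thus lower than that median on each of the 3, by the least on SHP2 sh2 replicate 2. With a single array left out, its value with SHP2 sh2 lay between -1.005 and -0.69.

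SNAI1 encodes SNAIL, whose protein is short-lived and is controlled in large part by phosphorylation and degradation, which RNA levels do not show. It read 8.45 and 7.11 under SHP2 sh1 and 7.86, 7.13 and 8.01 under SHP2 sh2, against 8.04 and 7.21 under Ctrl shRNA. The controls themselves differed by 0.83, and every group held a high and a low array. The log2 fold change was 0.15 (standard error 0.53) with SHP2 sh1 and 0.036 (standard error 0.49) with SHP2 sh2. For SNAI1 the lower value of the controls came from replicate 2, as the lowest value of each hairpin did.

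ZEB1 is a repressor of CDH1 and of the miR-200 genes. It read 8.45 and 7.33 under SHP2 sh1 and 8.12, 7.01 and 8.61 under SHP2 sh2, against 8.40 and 8.05 under Ctrl shRNA. The 2 low values are those of the arrays that stood apart, the same arrays on which CDH1 was highest, and the other 3 SHP2 arrays lay at 8.12 to 8.61, around the controls. On the 2 arrays that stood apart the ZEB1 differences from the control mean lay at percentiles 13.9 and 14.5 of all genes. A link between ZEB1 and CDH1 was not tested. The log2 fold change was -0.33 (standard error 0.58) with SHP2 sh1, and 0.23 without SHP2 sh1 replicate 2. With SHP2 sh2 it was -0.31 (standard error 0.53), and 0.14 without SHP2 sh2 replicate 2. The sign of ZEB1 with each hairpin therefore rested on a single array.

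ZEB2, the paralog of ZEB1 and likewise a repressor of CDH1, was represented by the dimmer of its probes, which is annotated with a single cDNA record. On it ZEB2 read 5.99 and 5.34 under SHP2 sh1 and 5.29, 4.79 and 5.43 under SHP2 sh2, against 5.50 and 6.24 under Ctrl shRNA. All 3 SHP2 sh2 arrays lay below both controls, as they did for 16.1% of all genes, and the controls themselves differed by 0.74. The other probe is annotated with the RefSeq transcripts of ZEB2 and gave 9.61 and 9.33 with SHP2 sh1 and 9.39, 9.15 and 9.33 with SHP2 sh2, against 9.13 and 9.33 with Ctrl shRNA. The probes disagreed in direction. With SHP2 sh2 the log2 fold change was -0.70 (standard error 0.34, unadjusted p = 0.0821 from limma) on the first and 0.059 on the second, and for both hairpins averaged it was -0.45 and 0.15.

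**Figure D3:**
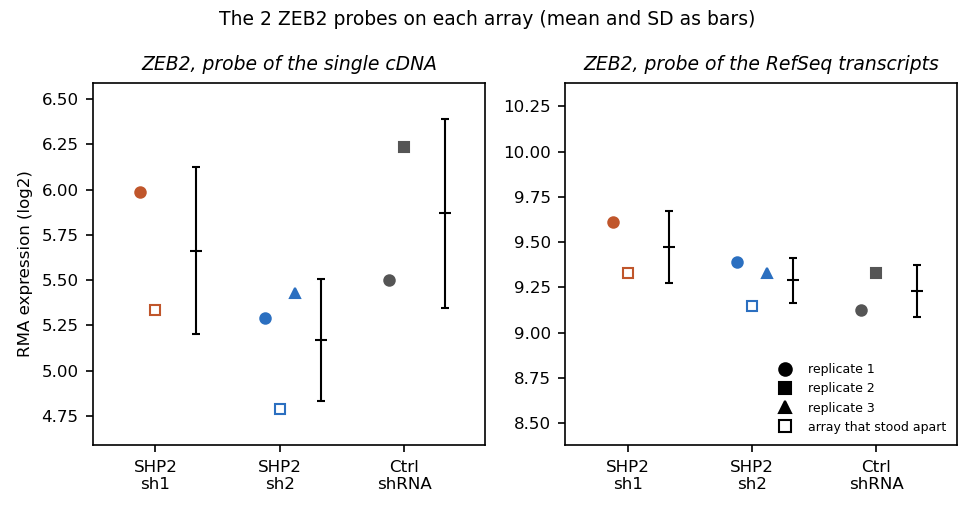
RMA expression (log2) of the 2 ZEB2 probes on each array by group, the probe of the single cDNA record on the left and the probe of the RefSeq transcripts on the right. Symbols and bars (mean and SD) are as in the plot of the 10 genes, and both panels span the same number of log2 units. The 3 SHP2 sh2 arrays lie below both controls on the left, at 4.79 to 5.43 (as for 16.1% of all genes), and around them on the right, at 9.15 to 9.39.

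The mature miRNAs of the miR-200 family are shown because their seeds, bases 2 to 8, are the part that recognises ZEB1 and ZEB2 messages. The seeds are in capitals, the sequences and positions are those of RefSeq on GRCh38.p14, all on the plus strand, and 3 of the miRNAs share the seed AAUACUG while 2 share AACACUG.
hsa-miR-200b-3p, chr1:1167160-1167181: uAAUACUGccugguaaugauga
hsa-miR-200c-3p, chr12:6963742-6963764: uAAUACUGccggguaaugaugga
hsa-miR-429, chr1:1169055-1169076: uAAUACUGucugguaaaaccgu
hsa-miR-200a-3p, chr1:1167916-1167937: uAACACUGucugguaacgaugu
hsa-miR-141-3p, chr12:6964155-6964176: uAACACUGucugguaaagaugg
The array reads the genes of the precursors, not the mature miRNAs. MIR200C read 4.99 and 5.44 under SHP2 sh1 and 5.42, 6.39 and 5.31 under SHP2 sh2, against 5.39 and 5.27 under Ctrl shRNA. MIR429 read 6.02 and 7.01 under SHP2 sh1 and 6.46, 7.23 and 6.36 under SHP2 sh2, against 6.15 and 6.22 under Ctrl shRNA. In both genes the highest value of each hairpin was on the array that stood apart. MIR200B and MIR141 did likewise, at up to 6.92 and 4.93 on SHP2 sh2 replicate 2, and MIR200A varied least, between 4.26 and 4.52 on the 7 arrays. For the mean of both hairpins all 5 precursor genes had a log2 fold change above 0, with a median of 0.20 beside 0.075 over all genes, and 0.031 without the 2 arrays that stood apart, where 3 of 5 were above 0. All 5 probes are in the dimmer 50% of genes, and none passed the threshold.

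The E-box bound by SNAI and ZEB proteins reads CACCTG on one strand and CAGGTG on the other, and these 2 spellings are the same site. Windows of 300 bases, 250 before and 50 after a start site, were used for 5 of the 10 genes (ZEB1, ZEB2, TWIST2, VIM and CDH2), 12 windows in all, from the table of RefSeq promoters used here. Promoters of the other 5 genes were not analysed here. ZEB1 had 7 of the 12 windows. The E-box stood in 2 of the 12, both of ZEB1, and in 20.6% of 35116 windows of all genes. These 2 ZEB1 windows held 1 and 3 E-boxes. The stretch before the most upstream listed start of ZEB1, chr10:31318317-31318416 on the plus strand of GRCh38.p14, is shown with the E-box in capitals, which begins 57 bases before the start.
ZEB1: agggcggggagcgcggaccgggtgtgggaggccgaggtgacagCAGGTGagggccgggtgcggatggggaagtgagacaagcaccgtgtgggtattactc
The match is a description of the letters, and binding was not measured.

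TWIST1 and TWIST2 are basic helix-loop-helix factors of the mesenchyme. TWIST1 read 7.58 and 8.33 under SHP2 sh1 and 7.72, 8.34 and 7.70 under SHP2 sh2, against 7.51 and 7.59 under Ctrl shRNA. TWIST2 read 7.65 and 8.33 under SHP2 sh1 and 7.76, 8.24 and 8.02 under SHP2 sh2, against 7.87 and 7.78 under Ctrl shRNA. In both genes the values above 8.2 were those of the arrays that stood apart. TWIST1 had a log2 fold change of 0.41 (standard error 0.34) with SHP2 sh1 and of 0.37 (standard error 0.31) with SHP2 sh2. TWIST2 had 0.16 (standard error 0.30) and 0.18 (standard error 0.27). The 3 SHP2 sh2 arrays of TWIST1 lay above both controls, by 0.11 at the closest. All 3 lay above both controls for 24.2% of all genes. Without the 2 arrays that stood apart, TWIST1 was 0.094 for both hairpins averaged and TWIST2 was -0.063.

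**Figure D4:**
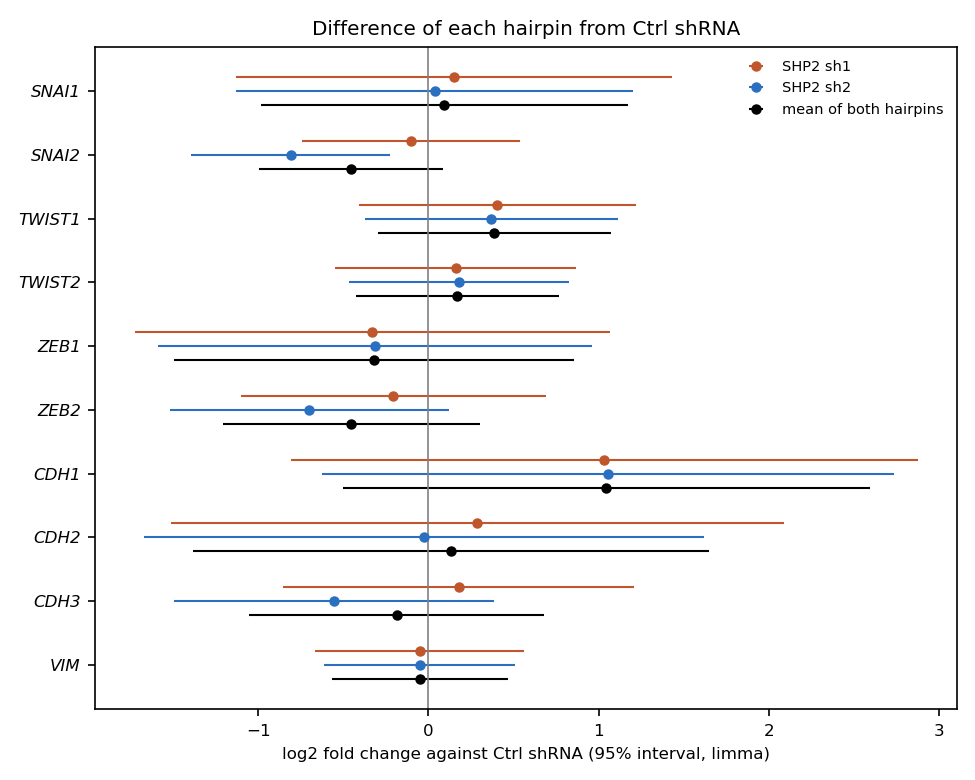
log2 fold change of each gene against Ctrl shRNA from limma, with SHP2 sh1 above SHP2 sh2 and the mean of both hairpins in each row, and lines for the 95% interval. Of the 30 intervals 1 leaves out 0, that of SNAI2 with SHP2 sh2 (-1.39 to -0.22).

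Between SHP2 sh2 and Ctrl shRNA the arrays of 4 of the 10 genes did not overlap, SNAI2 and ZEB2 lower and TWIST1 and CDH1 higher, whereas 40.3% of all genes did not overlap (16.1% lower and 24.2% higher). Between SHP2 sh1 and Ctrl shRNA this held for 0 of the 10 genes (25.1% of all genes), and between all 5 SHP2 arrays and Ctrl shRNA for 0 of the 10 (15.3%). Between SHP2 sh2 and SHP2 sh1 it held for 1 of the 10, SNAI2 (5.29%). ZEB2 is counted here on its dimmer probe. On the probe of the RefSeq transcripts its SHP2 sh2 arrays (9.39, 9.15 and 9.33) overlapped the controls (9.13 and 9.33). The share with SHP2 sh2 against Ctrl shRNA was therefore that of the background, the shares with SHP2 sh1 and with all 5 arrays were below it, and the share between the hairpins rests on 1 gene. Of the 10 genes only CDH1 had a log2 fold change above 1 for both hairpins averaged, which lay at percentile 99.8 of all genes. The median standard error of the 10 genes for both hairpins averaged was 0.34, against 0.26 over all genes.

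Epithelial genes other than CDH1 (25 of 28 listed were measured) showed 21 log2 fold changes above 0 and 4 below 0 for both hairpins averaged. Over all genes 42.0% were below 0 in that comparison, with a median of 0.075, and this background applies to each averaged list count below. The epithelial genes had a median of 0.33, and 0 passed the threshold. Their median difference reached 0.56 and 0.57 on SHP2 sh1 replicate 2 and SHP2 sh2 replicate 2, with 22 and 21 of the 25 genes above the control mean there, and was -0.033, 0.14 and 0.10 on the other 3 SHP2 arrays. Without the 2 arrays the median was 0.034, with 17 of 25 above 0. Of these genes 16 are in the dimmer 50% of all genes. The dimmest and second dimmest 25% had median differences of 0.23 and 0.31 on SHP2 sh1 replicate 2. On SHP2 sh2 replicate 2 these were 0.49 and 0.57. The part of this shift in the epithelial values was not tested. By the smallest p, CDS1, an enzyme of phospholipid synthesis, had -0.53 (standard error 0.21), and GRHL1, an epithelial grainyhead factor, had 0.50 (standard error 0.28). CDS1 read 7.19 and 7.09 under SHP2 sh1 and 7.15, 6.64 and 7.15 under SHP2 sh2, against 7.50 and 7.68 under Ctrl shRNA, and so ran opposite to most of its list.

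Markers of other cells are given beside these values, with 42.0% of all genes below 0 and a median of 0.075 as the background. Luminal breast markers (12 genes) had 11 values above 0 and a median of 0.24 for both hairpins averaged (0.044 without the 2 arrays), blood cell markers (10 of 12 measured) 9 above 0 and a median of 0.21 (0.087), and endothelial markers (10 genes) 10 above 0 and a median of 0.20 (-0.020). The mean level of the blood markers per array ran from 5.68 to 5.95 with SHP2 sh1 and from 5.64 to 6.02 with SHP2 sh2, against 5.57 to 5.64 with Ctrl shRNA. For endothelial markers it ran from 6.06 to 6.55 with SHP2 sh1 and from 6.05 to 6.53 with SHP2 sh2, against 5.82 to 6.11 with Ctrl shRNA. For luminal markers it ran from 6.12 to 6.52 with SHP2 sh1 and from 6.16 to 6.66 with SHP2 sh2, against 6.10 to 6.11 with Ctrl shRNA. Of the 10 blood markers 9, and of the 10 endothelial markers 8, are in the dimmer 50% of genes, and the RMA scale has no 0 that would mark an absent gene. The part of other cells in the values of CDH1 and the epithelial genes was not tested, and in bulk RNA fewer cells of a type and less RNA per cell cannot be told apart. Among basal markers 6 of 10 were measured, 5 below 0 and 1 above 0, with a median of -0.20 for both hairpins averaged. The 1 above 0 was LAMB3, at 0.69. By hairpin, 3 basal markers were below 0 with a median of 0.029 under SHP2 sh1, and 5 with a median of -0.69 under SHP2 sh2.

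Mesenchymal genes other than VIM (24 of 25 measured) were evenly divided for both hairpins averaged, 12 below 0 and 12 above 0, with a median of 0.072 beside 0.075 over all genes. Between the hairpins they were not, with 22 of 24 lower in SHP2 sh2 than in SHP2 sh1 and a median of -0.33, beside 44.7% and 0.029 over all genes. The basal markers also lay lower in SHP2 sh2 than in SHP2 sh1, 6 of 6 with a median of -0.64, among them KRT5 at -1.32 and KRT14 at -1.31. None of the 6 passed the test, and their part in the mesenchymal difference was not tested. None of the 24 mesenchymal genes passed the threshold in either comparison. Of the 24 genes 16 are in the brightest 25% of genes, as are the 6 basal markers. The median of that 25% was 0.0029 and -0.44 from the control mean on the SHP2 sh1 arrays. On the SHP2 sh2 arrays it was -0.13, -0.83 and -0.00067. The part of this shift in the difference between the hairpins was not tested. Without the 2 arrays that stood apart, 18 of 24 were lower in SHP2 sh2, with a median of -0.37, SHP2 sh1 then being 1 array. PDGFRB, a receptor of mesenchymal cells, read 8.19 and 8.59 under SHP2 sh1 and 7.44, 8.01 and 8.07 under SHP2 sh2, against 7.45 and 7.33 under Ctrl shRNA. Its log2 fold change was 0.73 for both hairpins averaged (standard error 0.24, unadjusted p = 0.0216 and adjusted p = 0.758 from limma). COL1A2, a chain of type I collagen, had 0.93 with SHP2 sh1 and 0.18 with SHP2 sh2.

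**Figure D5:**
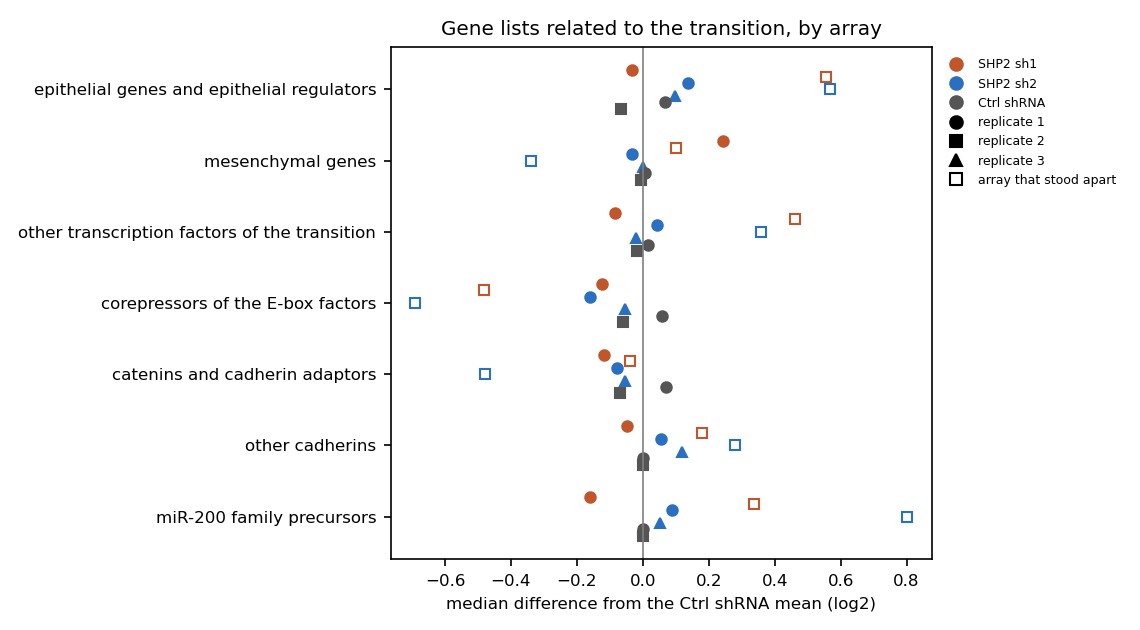
Each row is 1 of 7 gene lists, and the axis gives its median difference from the Ctrl shRNA mean (log2) per array, with colours for groups, symbols for replicates and open squares for the 2 arrays that stood apart. Epithelial genes lie at 0.56 and 0.57 on the open squares and at -0.033 to 0.14 on the other SHP2 arrays, and corepressors lie below 0 on all 5 SHP2 arrays, at -0.48 and -0.69 on the open squares and at -0.16 to -0.055 on the others.

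Partners of the 6 transcription factors were measured as well. Corepressors of the E-box factors (17 of 17 genes) had 16 log2 fold changes below 0 for both hairpins averaged, with a median of -0.28. Over all genes 42.0% were below 0 and the median was 0.075. Without the 2 arrays that stood apart 15 of 17 corepressors were below 0, with a median of -0.14. Of the corepressors 13 are in the brightest 25% of genes, which were lower on those arrays. AJUBA, a LIM protein that SNAI1 recruits, read 8.89 and 9.12 under SHP2 sh1 and 8.72, 8.76 and 8.94 under SHP2 sh2, against 9.29 and 9.61 under Ctrl shRNA, and had -0.54 (standard error 0.18, unadjusted p = 0.0235 and adjusted p = 0.758 from limma). It was below both controls on all 5 SHP2 arrays, as 7.17% of all genes were, and its value without the 2 arrays was -0.59. EZH2, the methyltransferase of histone H3 in Polycomb complexes, had -0.77 (standard error 0.41).

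The list of E proteins, with which the TWIST factors dimerise, and of ID proteins that sequester them also held HAND1 and HAND2. Its 9 genes had 5 values below 0 and 4 above 0 for both hairpins averaged. HAND1 and HAND2 were above 0 with each hairpin. TCF4, the E protein E2-2, read 9.55 and 9.27 under SHP2 sh1 and 9.35, 8.91 and 9.06 under SHP2 sh2, against 9.65 and 10.03 under Ctrl shRNA. All 5 SHP2 arrays lay below both controls, as they did for 7.17% of all genes. The log2 fold change for both hairpins averaged was -0.58 (standard error 0.21, unadjusted p = 0.0317 and adjusted p = 0.758 from limma). TCF12 had -0.41 (standard error 0.26) and TCF3 had 0.083 (standard error 0.35). ID2, an inhibitor of these factors, read 8.59 and 7.49 under SHP2 sh1 and 7.35, 6.45 and 6.98 under SHP2 sh2, against 8.33 and 8.29 under Ctrl shRNA. The SHP2 sh2 arrays of ID2 were all below every other array. Such a gap occurred in 3.08% of all genes between SHP2 sh2 and SHP2 sh1 and in 16.1% between SHP2 sh2 and Ctrl shRNA. For ID2, SHP2 sh2 minus SHP2 sh1 was -1.12 (standard error 0.39, unadjusted p = 0.0263 and adjusted p = 1 from limma). Among the other transcription factors of EMT (16 of 19 measured) 12 were above 0, with a median of 0.15 and of -0.055 without the 2 arrays, and KLF4, a factor of epithelial cells, had 0.34 (standard error 0.20). Regulators of SNAI1 protein stability (13 of 14 measured) had 8 values below 0 and a median of -0.29, which was 0.040 without the 2 arrays. In this list PRKD1, a kinase that phosphorylates SNAI1, had -0.64 (standard error 0.27, unadjusted p = 0.0491 and adjusted p = 0.758 from limma), and CSNK1A1, a casein kinase, had -0.64 (standard error 0.47).

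Catenins and adaptors link cadherins to actin. Of 14 listed 13 were measured, 7 below 0 and 6 above 0, with a median of -0.18 and of -0.014 without the 2 arrays that stood apart. CTNNB1 (beta-catenin) had -0.44 (standard error 0.50) and CTNNA1 (alpha-catenin) had -0.34 (standard error 0.39) for both hairpins averaged, and 0.10 and 0.048 without the 2 arrays. CBLL1, the ubiquitin ligase Hakai that acts on E-cadherin, had -0.57 (standard error 0.39), and CTNND2, a delta-catenin, had 0.41 (standard error 0.30).

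Among the other cadherins (17 of 19 measured, 5 below 0 and 12 above 0) CDH6 had a larger difference than any of the 10 genes. CDH6 encodes K-cadherin, known from the developing kidney. It read 7.46 and 6.37 under SHP2 sh1 and 6.20, 6.51 and 7.46 under SHP2 sh2, against 8.76 and 9.02 under Ctrl shRNA. All 5 SHP2 arrays lay below both controls, by 1.30 at the closest, and 7.17% of all genes had all 5 below both. The log2 fold change for both hairpins averaged was -2.07 (standard error 0.43, unadjusted p = 0.0022 and adjusted p = 0.758 from limma). It was -1.97 with SHP2 sh1, -2.16 with SHP2 sh2, and -1.74 for the mean without the 2 arrays that stood apart. CDH6 is named because it had the smallest p of its list, so its p is that of a chosen gene. CDH15, the M-cadherin of muscle, had 0.57 (standard error 0.25).

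Of other intermediate filament genes 15 of 16 were measured, 10 above 0 and 5 below 0 for both hairpins averaged. LMNB2, a B-type lamin of the nuclear envelope, read 9.14 and 9.30 under SHP2 sh1 and 9.32, 8.70 and 9.30 under SHP2 sh2, against 10.18 and 9.89 under Ctrl shRNA. Unlike VIM, which overlapped between the groups, it lay below both controls on all 5 SHP2 arrays, as 7.17% of all genes did. Its log2 fold change was -0.87 (standard error 0.24, unadjusted p = 0.0086 and adjusted p = 0.758 from limma). LMNB1 had -0.46 (standard error 0.35).

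The genes whose pattern over the 7 arrays was most like that of the 4 of the 10 genes with the largest interquartile range were also sought, as a description over arrays that share a cell line and, for 2 of them, a common shift. For CDH1 they were MCOLN3 (Pearson r of 0.996 over 7 arrays, and 0.977 over the 5 that did not stand apart) and SCRIB (0.996 and 0.970). For ZEB1 they were NLK (0.997 and 0.981) and ACOT13 (0.997 and 0.975). SNAI1 was most like GTSF1 (0.973 and 0.943) and FAM151B (0.959 and 0.922), and SNAI2 most like VCAN (0.973 and 0.982) and MRTFB (0.971 and 0.963). These are the highest of 18417 genes over 7 points, and no test was made of them.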

How the data were processed

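The authors made the deposited log2 values in oligo, whose version is not given in the sources used here. Robust multi-array averaging corrects the background, normalizes probes by quantiles and summarises each transcript, and its values were used as deposited. The labels name a column-based RNA kit and the array methods TRIzol. The platform annotation gave 1 symbol to 19460 of 33297 probes, several to 1754 and none to 12083. Gene IDs of 19429 of the 19460 were found in the RefSeq table of GRCh38.p14, which updated the symbols. Each of 18417 genes was represented by its probe of largest interquartile range.

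Group means were fitted in limma (3.58.1, R 4.3.3) with eBayes, using all 7 arrays. P-values are two-sided and were adjusted by Benjamini-Hochberg over the 18417 genes, with a threshold of 0.05. The procedure was run on simulated data with independent noise on each array. Those data lack the common shift of the arrays that stood apart, and so do not show how the fit performs with it. From each list of related genes, apart from the cell markers and the miR-200 genes, the 2 of smallest p for both hairpins averaged were named. TCF3, TCF4, TCF12, CTNNA1 and CTNNB1 were named in addition. Some other genes were named outside this rule, among them KRT5, KRT14 and LAMB3 after their values were seen. The 10 genes and the lists were chosen with earlier results of these data known. The miR-200 list, the ZEB2 probe comparison and list medians without the arrays that stood apart were added after seeing the data.

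Alternatives were the probe of highest mean, averaged probes, leaving out the dimmest 25% of genes, cyclic loess, median centring, a common SD of arrays, an eBayes trend, array weights, fits of the compared arrays alone, a replicate block, and leaving out arrays singly or both that stood apart. Figures were drawn with matplotlib (3.10.9).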

Additional observations from a re-analysis of the deposited data

How the results depend on the processing

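Each of the 40 values of the 10 genes (4 comparisons) was recomputed under other settings, 706 values in all. No value of the 10 genes passed the threshold under any setting run, 611 kept their direction and 95 turned it. The direction held throughout for 11 of the 40, among them SNAI2 with SHP2 sh2 (-1.005 to -0.53) and CDH1 with SHP2 sh2 (0.65 to 1.41) and for both hairpins averaged (0.28 to 1.61). Array weights raised the genes called with SHP2 sh2 to 122, with none of the 10 among them (SNAI2 adjusted p = 0.0533 from limma). Where no array was left out, the cause of a turned sign was not tested.

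With array weights the turned values were TWIST2 -0.022 and VIM 0.10 with SHP2 sh2, VIM 0.026 for both hairpins averaged, and CDH1 -0.17, SNAI1 0.095, TWIST2 -0.18 and VIM 0.15 between the hairpins (SHP2 sh2 minus SHP2 sh1). With a common SD they were VIM 0.075 with SHP2 sh1, SNAI1 -0.0037 and VIM 0.12 with SHP2 sh2, VIM 0.097 averaged, and CDH1 -0.032, TWIST2 -0.0021, VIM 0.045 and ZEB1 -0.0061 between the hairpins. Cyclic loess gave SNAI2 0.095 and VIM 0.17 with SHP2 sh1, CDH2 0.065 and VIM 0.21 with SHP2 sh2, CDH3 0.044 and VIM 0.19 averaged, and CDH1 -0.073, TWIST1 0.0023 and VIM 0.048 between the hairpins. Median centring gave SNAI1 -0.033 with SHP2 sh2, and CDH1 -0.012, TWIST2 -0.018 and ZEB1 -0.017 between the hairpins. The ZEB2 probe of highest mean, that of the RefSeq transcripts, gave 0.24 with SHP2 sh1, 0.059 with SHP2 sh2 and 0.15 averaged, and the mean of both ZEB2 probes gave 0.018 with SHP2 sh1. The filter on dim genes removed ZEB2 and turned no other sign.

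Without both arrays that stood apart the turned values were CDH1 -0.093, CDH2 -0.030, CDH3 -0.086, TWIST2 -0.18, VIM 0.027, ZEB1 0.23 and ZEB2 0.12 with SHP2 sh1, CDH2 0.51, VIM 0.13 and ZEB1 0.14 with SHP2 sh2, TWIST2 -0.063, VIM 0.077 and ZEB1 0.19 averaged, and CDH2 0.54, TWIST1 0.13, VIM 0.10 and ZEB1 -0.092 between the hairpins.

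With single arrays left out, 23 of the 40 values turned. With SHP2 sh1 they ranged from -0.51 to 0.82 for SNAI1, -0.18 to 0.51 for TWIST2, -0.89 to 0.23 for ZEB1, -0.58 to 0.16 for ZEB2, -0.093 to 2.16 for CDH1, -0.030 to 0.60 for CDH2, -0.086 to 0.44 for CDH3 and -0.13 to 0.027 for VIM. With SHP2 sh2 the ranges were -0.38 to 0.45 for SNAI1, -0.66 to 0.14 for ZEB1, -0.74 to 0.51 for CDH2 and -0.15 to 0.13 for VIM. Averaged, they were -0.32 to 0.51 for SNAI1, -0.0032 to 0.34 for TWIST2, -0.23 to 0.40 for CDH2 and -0.12 to 0.038 for VIM. Between the hairpins they were -0.78 to 0.55 for SNAI1, -0.41 to 0.34 for TWIST1, -0.33 to 0.36 for TWIST2, -0.54 to 0.58 for ZEB1, -1.11 to 1.15 for CDH1, -1.03 to 0.22 for CDH2 and -0.10 to 0.18 for VIM. Where a single array was left in a group, its spread was taken to be that of the others.

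Deviations from the group means of same-numbered arrays had correlations of -0.06 to 0.023 between hairpins and controls and of 0.62 and 0.85 between the hairpins, and SHP2 sh2 replicate 3 had 0.81 with SHP2 sh1 replicate 1, so the numbers establish no pairing. The replicate block called 0 genes and turned SNAI1 to -0.14 with SHP2 sh2, CDH2 to -0.23 averaged, and TWIST1 to 0.073 and ZEB1 to -0.33 between the hairpins.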
